A study of Mus musculus with 8 samples.

Results

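Peaks of N6-methyladenosine (m6A) in the 5′ untranslated regions (5′ UTRs) of mouse embryonic stem cell transcripts numbered 442 of the 17068 deposited peaks (2.59%), in 350 genes. A peak was counted when its midpoint lay in an exonic 5′ UTR base, on the same strand, of the protein-coding transcript with the longest coding sequence (CDS) of its gene in GENCODE, on genome build mm10. The rule used position and strand alone. The list a peak came from, its sequence, its place within the UTR and the other peaks of its gene were not used by it, and the tests below are on those. The midpoints closest to the start codon on the UTR side lay 1 nt from it in Spns1 and 2 nt from it in Dr1 and Epn2, and on the CDS side peaks of Cggbp1, Hsp90b1 and Zfp445 lay 1 nt inside.

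The peaks came from m6A immunoprecipitation of chromatin-associated RNA, a fraction rich in nascent transcripts, of E14 cells, an established mouse embryonic stem cell line kept undifferentiated in serum with LIF. There were 8 libraries in 4 groups of 2: SySy ChrMeRIP and Abcam ChrMeRIP, the RNA precipitated with the Synaptic Systems antibody and with the Abcam antibody, and SySy Input and Abcam Input, the RNA before precipitation. All groups came from untreated cells of this 1 line, and the labels do not say whether duplicates were separate cultures. Per the study's methods, Abcam libraries were made with a TruSeq Stranded kit and SySy libraries with a NEBNext Ultra II Directional kit. Differences between the antibodies therefore cannot be told apart from differences between the kits. The values were 3 lists of intervals that the authors had called on duplicates together: Cfg1, called with both antibodies (5277 peaks), Cfg2, called with SySy while Abcam signal stayed below its calling cutoff (5472 peaks), and Cfg3, called with Abcam alone (6319 peaks). The lists hold no peak height and no value per library, so the depth is unknown and no error between replicates exists. The 95% intervals and p-values below therefore cover counting error only, and peaks of 1 gene are not independent of each other.

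m6A is placed on nascent RNA by a complex built around METTL3 and METTL14, mostly at adenosines in a GGAC-type sequence, and is best known from long internal exons and from around stop codons. The 5′ UTR carries the cap, is scanned by the small ribosomal subunit, and has been studied as a place where m6A can act on translation, for instance during heat shock. A chemically related mark, m6Am, is made by PCIF1 at the first transcribed base when that base is an adenosine, and m6A antibodies also bind it.

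The sequences below show the GGACT closest to the midpoint of a 5′ UTR peak, with the 10 nt on each side, as the RNA strand reads in DNA letters. They are shown because this pentamer was the m6A sequence counted in all peaks. GGACT lay within 50 nt of the midpoint in 108 of 442 peaks. From those, peaks of each list were chosen whose GGACT lay nearest to the midpoint, so the short distances given below come from that choice. The capitals mark the GGACT. All coordinates are mm10, from the first to the last base, and the letters are those of the GENCODE transcripts, which matched the genome for all 350 genes. The first 10 are from Cfg1 peaks, the next 5 from Cfg2 peaks and the last 2 from Cfg3 peaks.
Dhx32 (chr7:133759714-133759738, minus strand): gctgaacggaGGACTggactgtgga
Supt6 (chr11:78245785-78245809, minus strand): aggcgttcgcGGACTcggaaccaaa
Trim71 (chr9:114563274-114563298, minus strand): attccacggcGGACTttgagacttg
Spry2 (chr14:105896689-105896713, minus strand): cttggaagttGGACTgaagcagagt
4931406P16Rik (chr7:34285233-34285257, minus strand): aaaaaaaaaaGGACTcagaaccctg
St3gal2 (chr8:110957381-110957405, plus strand): cactcacaagGGACTagagggctga
Limd1 (chr9:123479075-123479099, plus strand): aactctggctGGACTgtgagttttg
Sipa1l3 (chr7:29400923-29400947, minus strand): ctttgccccaGGACTggcgggcctg
Slmap (chr14:26533769-26533793, minus strand): tagggaagatGGACTgaaagctgct
Lats2 (chr14:57734211-57734235, minus strand): aaaggaaactGGACTaacaatgagg
Brd2 (chr17:34118904-34118928, minus strand): ccagtttcggGGACTgccgggtttg
Cdc42se1 (chr3:95231953-95231977, plus strand): ctgcctgtgaGGACTggttggttag
Cnksr3 (chr10:7211716-7211740, minus strand): gcaggctgcaGGACTcctgtcgatt
Kbtbd2 (chr6:56789418-56789442, minus strand): ccatcaagacGGACTtttctaatct
2700049A03Rik (chr12:71137807-71137831, plus strand): aagaacggcgGGACTtgatttgtga
Cpt1c (chr7:44974701-44974725, minus strand): atcagtttgtGGACTcattacacgg
Clasp1 (chr1:118419521-118419545, plus strand): tatttaaattGGACTtttaatatcc

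In the Dhx32, Supt6 and Trim71 peaks of Cfg1 and in the Cdc42se1, Cnksr3 and Kbtbd2 peaks of Cfg2 the motif lay 1 nt from the peak midpoint, and in Brd2 it lay at the midpoint itself. In Dhx32, which encodes a DEAH-box helicase, the GGACT shown is followed directly by another, and its first base lay 26 nt upstream of the start codon. In Lats2, a kinase of the Hippo pathway, the motif began 9 nt upstream of the start codon, so that the window shown runs into the coding sequence. In Supt6, a transcription elongation factor, it began 282 nt upstream of the start codon and 188 nt from the transcript start. The Clasp1 motif, in the transcript of a microtubule-binding protein, was the most distant of those shown, at 23 nt from the midpoint.

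Most 5′ UTR peaks had been called with SySy while their Abcam signal stayed below the cutoff. Of the 442 peaks, 310 (70.1%, 65.7 to 74.2) belonged to Cfg2, 90 (20.4%, 16.9 to 24.4) to Cfg1 and 42 (9.5%, 7.11 to 12.6) to Cfg3. The same shares among CDS peaks were 30.6% in Cfg2, 43.2% in Cfg1 and 26.2% in Cfg3, and among 3′ UTR peaks 51.1%, 39.0% and 9.96% in the same order of lists. Among peaks called with SySy, 90 of 400 in the 5′ UTR were also called with Abcam (22.5%, 18.7 to 26.8), against 3005 of 5128 in the CDS (58.6%, 57.2 to 59.9), a difference of -36.1 percentage points (-40.1 to -31.6; two-sided Fisher's exact test, adjusted p = 5.04e-44). Against the 3′ UTR, where 1393 of 3219 were also called with Abcam (43.3%), the difference was -20.8 points (-25.0 to -16.1, adjusted p = 2.28e-15 by Fisher's exact test). The share of peaks called with Abcam alone was lower in the 5′ UTR than in the CDS, with a difference of -16.7 points (-19.3 to -13.4, adjusted p = 1.47e-16, Fisher's exact test). It did not pass the test against the 3′ UTR, with a difference of -0.46 points (-3.06 to 2.78, adjusted p = 0.94, Fisher's exact test). Seen from the lists, 5′ UTR peaks made up 2.01% of the exonic peaks of coding genes in Cfg1 (90 of 4488), 7.28% in Cfg2 (310 of 4259) and 1.89% in Cfg3 (42 of 2219).

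**Figure D1:**
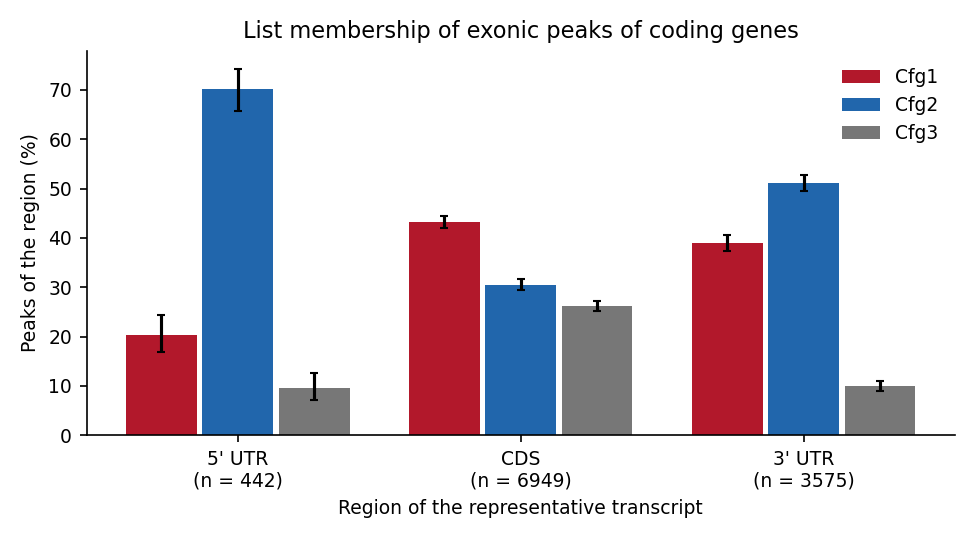
Share of the peaks of each region (5′ UTR, CDS and 3′ UTR of the representative transcript, x axis) that belonged to each list (y axis, %), with 95% Wilson intervals as error bars. Cfg2 held 70.1% of the 442 5′ UTR peaks, against 30.6% of CDS and 51.1% of 3′ UTR peaks.

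Genes with a 5′ UTR peak had long 5′ UTRs. The median annotated length was 483 nt over these 350 genes (25th to 75th percentile 311 to 705), against 180 nt over the 4834 genes that had a peak elsewhere but none in the 5′ UTR (96 to 310). A UTR longer than 500 nt was annotated in 169 of 350 (48.3%) and in 416 of 4834 (8.61%). These lengths are described without a test, since a longer UTR holds more positions in which a midpoint can fall. Counted per peak, the UTR had a median length of 618.5 nt for Cfg1, 505 nt for Cfg2 and 569.5 nt for Cfg3 peaks. The share of genes whose 5′ UTR lay in 1 exon was nearly the same with a 5′ UTR peak (62.0%) and without one (61.7%).

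Within the UTR, few peak midpoints lay in the first 100 nt of the transcript. The median interval was 156 nt wide, and 17 of the 442 extended past the annotated start. An interval inside the transcript leaves its midpoint little room near the start. The values below therefore do not show whether peaks covered the first bases. Midpoints lay at a median of 425.5 nt from the transcript start in Cfg1 (range 110 to 1341), 238.5 nt in Cfg2 (1 to 1612) and 316 nt in Cfg3 (29 to 1304), counted along the spliced RNA. As a share of the UTR, the median position was 80.2% in Cfg1, 61.9% in Cfg2 and 59.4% in Cfg3, where 100% is the start codon. Set against the number of UTR bases available at each distance in coding genes with a peak, the 3 lists together gave 4.44 midpoints per 100 kb of UTR in the first 50 nt (2.22 to 7.94, exact Poisson interval) and 6.99 in the next 50 nt (3.91 to 11.5). Between 150 and 200 nt the value was 51.1 per 100 kb (39.96 to 64.3), and between 500 and 700 nt it was 74.5 (56.4 to 96.5). Cfg2 stood at 44.7 per 100 kb between 150 and 200 nt (34.3 to 57.2), between 26.7 and 39.1 in each class from there to 700 nt, and at 53.2 between 700 and 1000 nt (34.1 to 79.2). Cfg1 had no midpoint in the first 100 nt, 4.26 per 100 kb between 150 and 200 nt (1.56 to 9.26) and 30.04 between 500 and 700 nt (19.05 to 45.1). Counted back from the start codon, there was little slope within the last 500 nt of the UTR: the density over all lists was 34.7 per 100 kb in the last 50 nt of the UTR (27.8 to 42.9) and 33.2 between 300 and 400 nt upstream (23.8 to 45.0). Farther upstream it was 42.2 between 700 and 1000 nt (25.4 to 65.8) and 9.48 between 1000 and 2000 nt (1.95 to 27.7), from 3 peaks, none of them of Cfg1.

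**Figure D2:**
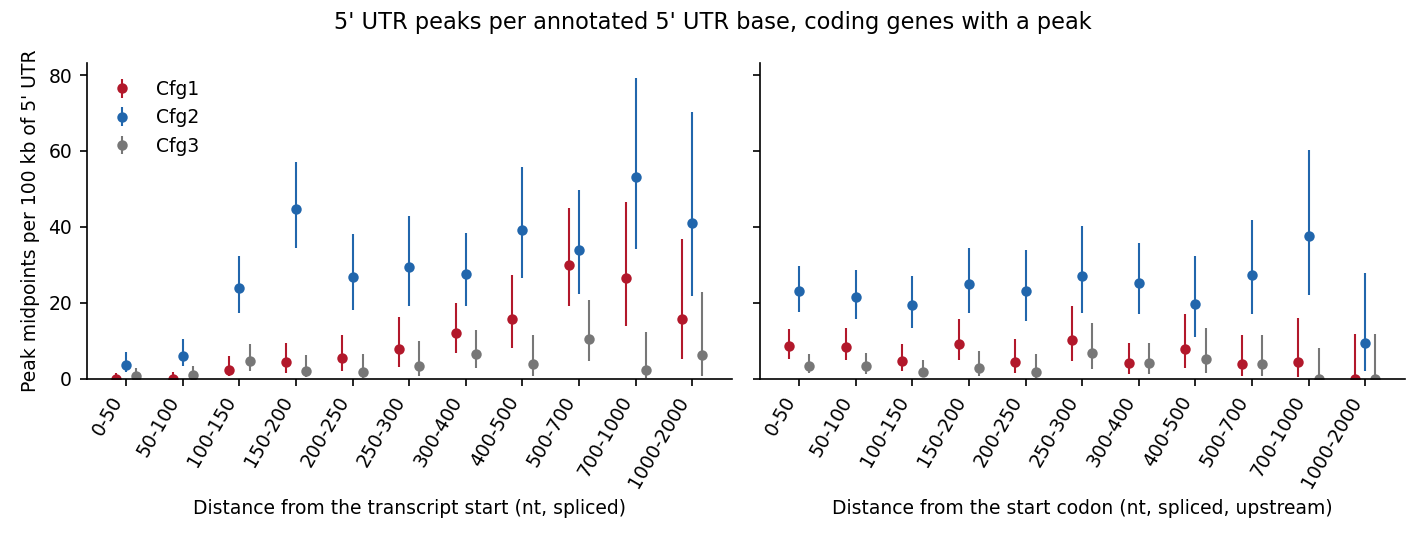
Peak midpoints per 100 kb of annotated 5′ UTR (y axis) against spliced distance in nt from the transcript start (left) and upstream of the start codon (right), for the 3 lists, with exact 95% Poisson intervals as lines. On the left, Cfg2 stands at 44.7 between 150 and 200 nt and 53.2 between 700 and 1000 nt, and Cfg1 at 4.26 and 26.6 in the same classes. On the right, Cfg2 lies between 19.4 and 27.0 over the last 500 nt. Cfg1 lies between 4.05 and 10.1 there and Cfg3 between 1.71 and 6.76, both with wide intervals.

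A midpoint was called near the transcript start when it was no farther from it than the reach to which the authors had trimmed a peak on each side of its summit, 50% of the 250 nt limit on width. Such peaks were 39 of 310 Cfg2 peaks (12.6%, 9.34 to 16.7), 2 of 90 Cfg1 peaks (2.22%, 0.61 to 7.74) and 9 of 42 Cfg3 peaks (21.4%, 11.7 to 35.9). Cfg2 exceeded Cfg1 by 10.4 points (3.96 to 14.8, adjusted p = 0.0079, two-sided Fisher's exact test), and Cfg1 minus Cfg3 came to -19.2 points (-33.8 to -8.02, adjusted p = 0.0019). Cfg2 minus Cfg3 came to -8.85 points (-23.7 to 1.73, adjusted p = 0.25, Fisher's exact test), which did not pass. Both calls depended on what counted as near. With a limit of 200 nt both passed, at 30.8 points for Cfg2 minus Cfg1 (adjusted p = 7.89e-08, Fisher's exact test) and -27.0 for Cfg1 minus Cfg3 (adjusted p = 0.0021, Fisher's exact test), and Cfg2 minus Cfg3 turned to 3.84 points without passing. With a limit of 50 nt no Cfg1 peak was near, and neither difference passed (adjusted p = 0.40 for Cfg2 minus Cfg1 and 0.24 for Cfg1 minus Cfg3, Fisher's exact test). Other annotated starts also mattered. Measured to the nearest start of any transcript of the gene, 32.6% of Cfg2, 20% of Cfg1 and 57.1% of Cfg3 peaks were near one. Cfg2 minus Cfg1 then missed the threshold (12.6 points, adjusted p = 0.056, Fisher's exact test). Cfg2 minus Cfg3 passed it at -24.6 points (adjusted p = 0.0092, Fisher's exact test), and so did Cfg1 minus Cfg3 at -37.1 points (adjusted p = 0.00014, Fisher's exact test).

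The peaks closest to a start are shown with the first 20 bases of their annotated transcript, the first base in capitals, since a cap-adjacent m6Am needs an adenosine there. Cxcl16 and Spry2 are the 2 Cfg1 peaks of this kind, Rptor and Lime1 the closest of Cfg2, and Abi1 and Wdr83 the closest of Cfg3.
Cxcl16 (chr11:70459965-70459984, minus strand): Catgtgactggatcctactg
Spry2 (chr14:105896800-105896819, minus strand): Ccgcgtgcgcttctggaagg
Rptor (chr11:119603149-119603168, plus strand): Actcgttcctgggtaggaga
Lime1 (chr2:181381235-181381254, plus strand): Gaggagagcagagactgtgg
Abi1 (chr2:23040103-23040122, minus strand): Ggactcagcttcctctgtct
Wdr83 (chr8:85080727-85080746, minus strand): Gcaaagcaggaaataaatcc

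The Rptor peak, in the transcript of the mTORC1 scaffold protein raptor, was centred 1 nt from the annotated start, its 250 nt interval reached 124 nt upstream of it, and the first base was A. The Lime1 midpoint lay 3 nt from a start with G, and its interval reached 68 nt upstream. Other Cfg2 peaks near a start were those of Cep44, a centrosomal protein (6 nt), and Rdh10, a retinol dehydrogenase (9 nt). In Cfg1 the nearest were the peaks of Cxcl16, a chemokine (110 nt), Spry2, an inhibitor of FGF receptor signalling (116 nt), Hk2, a hexokinase (134 nt), and Arhgap5 (146 nt). In Cfg3 they were those of Abi1 (29 nt), Wdr83 (39 nt), Trim63 (60 nt) and the splicing regulator Mbnl2 (64 nt). Intervals that extended past the annotated start numbered 1 in Cfg1, 13 in Cfg2 and 3 in Cfg3. An A was annotated as first base for 13 of 50 near peaks (26.0%, 15.9 to 39.6) and 95 of 392 farther ones (24.2%, 20.3 to 28.7), a difference of 1.77 points (-9.31 to 15.9, adjusted p = 0.94, Fisher's exact test). It was A in 23.9% of all coding genes with a peak. Annotated starts were not checked against start sites measured in these cells.

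At the other end, the interval ran over the start codon in 40 of 90 in Cfg1 (44.4%, 34.6 to 54.7), 76 of 310 in Cfg2 (24.5%, 20.1 to 29.6) and 9 of 42 in Cfg3 (21.4%, 11.7 to 35.9). Midpoints within 200 nt of the start codon numbered 60 in Cfg1 (66.7%), 172 in Cfg2 (55.5%) and 22 in Cfg3 (52.4%). The exon that held the midpoint also held the start codon for 83, 264 and 34 peaks of Cfg1, Cfg2 and Cfg3. The lists also stood apart in which exon this was. In Cfg1, 50 of 90 peaks lay in a second or later exon (55.6%, 45.3 to 65.4), against 52 of 310 in Cfg2 (16.8%, 13.0 to 21.3) and 9 of 42 in Cfg3 (21.4%, 11.7 to 35.9). Where the UTR itself was spread over more than 1 exon, the later exons held 50 of 57 Cfg1 peaks (87.7%, 76.8 to 93.9), 52 of 93 Cfg2 peaks (55.9%, 45.8 to 65.6) and 9 of 17 Cfg3 peaks (52.9%, 31.0 to 73.8). This contrast was noticed after the values had been seen and was given no test. Of midpoints with an intron downstream, 2 of 76 in Cfg1, 12 of 287 in Cfg2 and 3 of 40 in Cfg3 were within 100 nt of the end of their exon. The share of all 5′ UTR bases this close to an exon end was not counted, so no depletion near splice sites can be read from these counts. The greatest distances from the start in Cfg1 were those of Gprasp1, whose peak 1341 nt along the RNA lay in exon 11, and of Abl1 (1169 nt), Slmap (1102 nt) and Trim71 (1084 nt). In Cfg2 they were 2 peaks of Brd2 (1612 and 1423 nt), BC025920 (1365 nt) and Smad7 (1341 nt), and in Cfg3 Slmap (1304 nt), Sox21 (1071 nt), Abl1 (718 nt) and Dr1 (691 nt).

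Single peaks were the rule. Of the 350 genes, 276 had 1 peak in the 5′ UTR, 61 had 2, 9 had 3, 3 had 4, and Abl1 had 5. The 74 genes with more than 1 held 166 peaks. Of their 92 pairs of neighbouring peaks, 60 lay within 10 nt of each other. The authors had split broad peaks between summits, so a gene's count of peaks is in part a count of summits. Lists could meet in 1 UTR only in these 74 genes, of which 12 had Cfg1 and Cfg2, 4 Cfg2 and Cfg3, 2 Cfg1 and Cfg3, and 1 (Abl1) all 3. Over all 350 genes, 240 had Cfg2 peaks alone, 58 Cfg1 alone and 33 Cfg3 alone, counts that include the 276 with a single peak.

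Abl1, which encodes a tyrosine kinase, had its 5 peaks along a UTR of 1256 nt on chromosome 2, all in the first exon. The most upstream, a Cfg2 peak at chr2:31688637-31688760 on the plus strand, was centred 148 nt from the start, had a GC content of 71.3% in the window of 50 nt to either side of its midpoint and held the single GGACT, of 3 in the UTR, that lay wholly inside a peak. The most downstream, a Cfg1 peak at chr2:31689603-31689836, was centred 87 nt before the start codon, ran over it and had a GC content of 48.5%. Ep300, a histone acetyltransferase, had 4 Cfg2 peaks in a UTR of 1232 nt and 8 further peaks in its CDS. Both GGACT sites of that UTR lay in peaks. Zrsr1, a splicing factor related to the small U2AF subunit, had 4 peaks in a UTR of 1223 nt, all of Cfg1, without a GGACT anywhere in that UTR. Mbnl2, a splicing regulator of the muscleblind family, had 2 Cfg3 peaks upstream of 2 Cfg1 peaks. All 4 lay in a UTR of 630 nt, and the most downstream ran over the start codon.

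Among the genes with 3 peaks, Brd2, a bromodomain reader of acetylated histones, had the longest UTR (1708 nt) and no CDS peak. Trim71, an RNA-binding regulator of stem cells, had 2 Cfg2 peaks upstream and a Cfg1 peak 168 nt before the start codon, and 6 CDS peaks. Hexim1, which holds the elongation factor P-TEFb inactive, had a Cfg2 peak at 254 nt followed by Cfg1 peaks at 425 and 634 nt. Fzd7, a Wnt receptor encoded in a single exon, had Cfg2 peaks at 149, 301 and 464 nt of a 536 nt UTR and 5 in the CDS. Morc2a, an ATPase of chromatin silencing, and Trim8, a ubiquitin ligase, had 3 Cfg2 peaks each, Tulp4 had 2 Cfg2 peaks upstream of 1 Cfg1 peak, and the 3 peaks of 2700049A03Rik were the only ones of that gene.

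**Figure D3:**
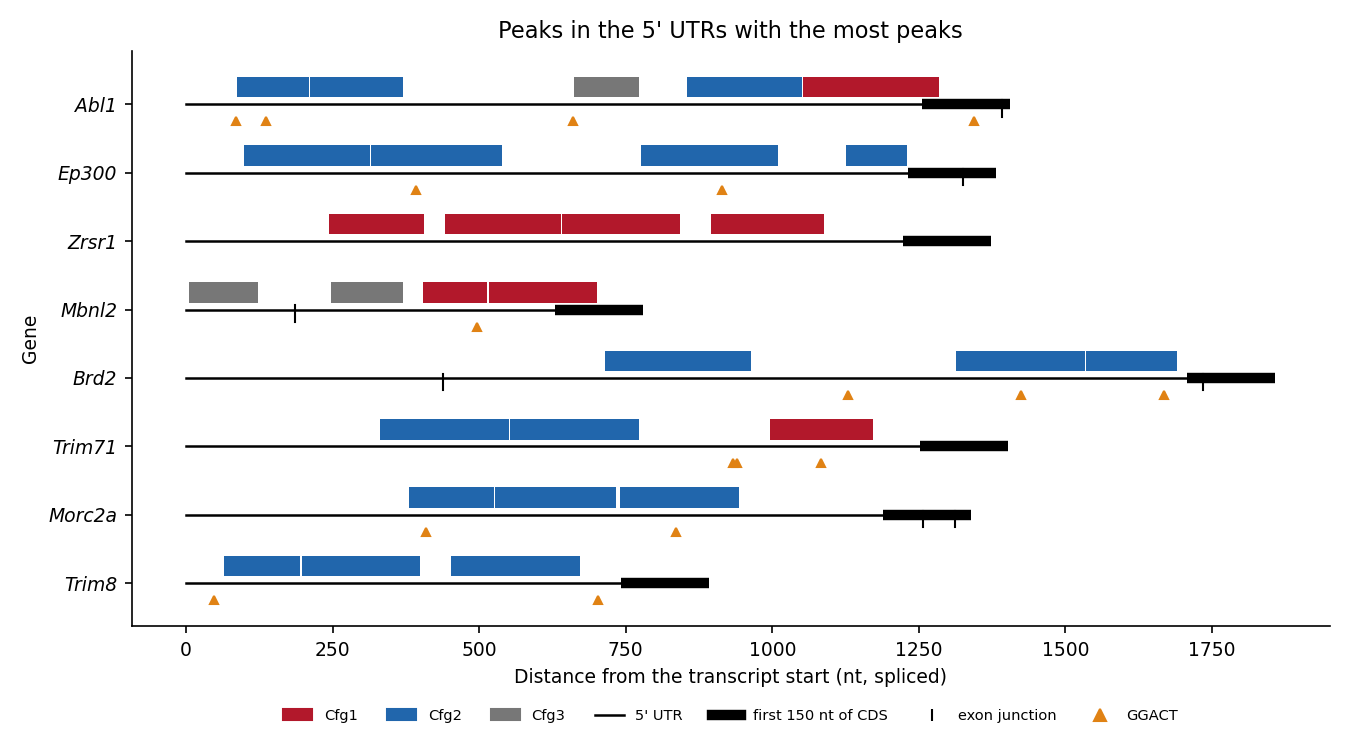
The 8 genes with the most 5′ UTR peaks, ordered by count and then by summed width, drawn along the spliced RNA (x axis, nt from the transcript start; thin line, 5′ UTR; thick line, first 150 nt of the CDS). Boxes are peaks coloured by list, ticks are exon junctions and triangles GGACT sites, and neighbouring boxes often touch. The box closest to the start codon is a Cfg1 peak in Abl1, Zrsr1, Mbnl2 and Trim71. In Ep300, Brd2, Morc2a and Trim8 it is a Cfg2 peak.

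Of all 20365 coding genes with an annotated 5′ UTR, 1.72% had a 5′ UTR peak (0.358% of Cfg1, 1.26% of Cfg2 and 0.196% of Cfg3), and of the 5184 that had a peak of any list 6.75% did (1.41% of Cfg1, 4.96% of Cfg2 and 0.772% of Cfg3). Of 24 m6A writers, readers and erasers with an annotated 5′ UTR, 16 had a peak somewhere and 3 had one in the 5′ UTR, all of Cfg2. These were the demethylase Alkbh5, with a peak 54 nt before the start codon that ran over it, the cytoplasmic reader Ythdf3, with 1 of its 10 peaks centred at 130 nt of a 261 nt UTR, and the RNA-binding protein Hnrnpa2b1, with a peak 79 nt from the start. The other 21, among them Mettl3, Mettl14, Wtap, Ythdc1 and Fto, had none in the 5′ UTR. Of 24 heat shock chaperones 2 had a 5′ UTR peak, both of Cfg2: Hspa5, the chaperone BiP of the endoplasmic reticulum, with 2 touching peaks centred 91 and 12 nt before the start codon, and Hspa4, with a peak 18 nt before it. None of the 42 translation initiation factors, 42 cyclins, Cdks and Cdk inhibitors or 74 ribosomal protein genes had one. A peak elsewhere in the gene was present in 13, 18 and 9 of them, too few to set apart from the 6.75% of all genes with a peak. The median 5′ UTR of these 3 lists was 122, 228 and 118 nt.

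Pluripotency factors had 2 of 27, the reprogramming factor Klf4, with a Cfg2 peak over the start codon, and Klf5, with a Cfg2 peak at 175 nt. Of 30 immediate early genes Dusp6, a phosphatase of ERK, had a Cfg3 peak at 158 nt, and of 20 genes of the integrated stress response Ppp1r15b, which directs the dephosphorylation of eIF2α, had a Cfg2 peak at 473 nt. Genes of Polycomb and histone methylation had 7 of 58 (12.1%). Of these, Kdm5a, a demethylase of H3K4, had a Cfg1 peak of the full 250 nt, and its relative Kdm5c, the H3K4 methyltransferase Setd1a, the related Kmt2e, the Polycomb accessory protein Mtf2 and Setdb2 had 1 Cfg2 peak each. The peak of Setdb2 was the only one of that gene. TGF-beta, BMP and Wnt signalling had 6 of 50 (12%): the Wnt receptor Fzd5 with a Cfg1 peak over the start codon, and with Cfg2 peaks the receptors Fzd7 and Fzd8, Apc, which promotes the breakdown of beta-catenin, Smad5, a BMP effector, and Smad7, an inhibitor of the pathway. Of genes with a peak, the share was 10.5% of pluripotency factors, 5.88% of immediate early genes and 7.14% of the integrated stress response. It was 15.2% of Polycomb and histone methylation and 20.7% of the signalling genes, against 6.75% of all. The median annotated 5′ UTR was 334.5 nt in the signalling list and 209 nt in the Polycomb and histone methylation list. It was 150 nt for pluripotency factors, 230.5 nt for immediate early genes and 188 nt for the integrated stress response. Over all coding genes with an annotated 5′ UTR it was 164 nt. Counts in these lists rest on few genes and were not tested, nor was the part that UTR length has in them.

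Of their genes with a peak, the remaining lists had a 5′ UTR peak in 3.85% to 8.70%, against 6.75% of all, and the solute carriers in 13.2%. Zfp zinc finger genes had 11 of 353 annotated (3.12%), 6 of them with a Cfg1 peak, including Zfp146, whose only peak covered the start codon, Zfp217, Zfp239, Zfp260, Zfp638 and Zfp740. Solute carriers had 10 of 326 annotated (3.07%) and of 76 with a peak, among them Slc1a5, a glutamine transporter, Slc20a2, a phosphate transporter, Slc33a1, Slc45a4, Slc5a3 and Slc12a2. Chd4, the remodelling ATPase of NuRD, was the single chromatin remodeller of 27, Rad50 the single DNA damage gene of 36, and Ndufa13, a subunit of respiratory complex I, the single oxidative phosphorylation gene of 97. Hnrnpf and Srsf6 were the 2 of 30 SR proteins and hnRNPs, and Usp48 and Usp54 the 2 of 47 Usp deubiquitinase genes.

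Cfg2 peaks of the 5′ UTR were richer in GC than those of the other lists. The median GC content within 50 nt of the midpoint was 67.3% in Cfg2 5′ UTR peaks (25th to 75th percentile 56.7 to 74.3), 49.0% in Cfg1 (44.6 to 57.2) and 53.5% in Cfg3 (48.5 to 55.4). In the CDS the medians were 55.4% in Cfg2, and 50.5% in both Cfg1 and Cfg3, and in the 3′ UTR they lay between 48.5% and 51.5%. The whole 5′ UTRs of genes with a peak had a median of 65.2% (58.0 to 72.1) over the 3900 that were at least as long as such a window, so that Cfg2 peaks lay near the composition of these UTRs and the Cfg1 and Cfg3 peaks below it. GC content also changes along a UTR, and the lists still lay apart within distance classes. Between the near limit and 250 nt from the start the median was 71.3% in 119 Cfg2 peaks and 55.4% in 14 Cfg1 peaks, between 250 and 500 nt 66.3% in 89 and 46.5% in 34, and beyond 500 nt 55.4% in 63 and 48.5% in 40. In first exons it was 69.3% in 258 Cfg2 and 52.0% in 40 Cfg1 peaks, whereas in later exons it was 48.0% in 52 Cfg2 and 46.5% in 50 Cfg1 peaks. The single highest value was 87.1%, in a Cfg2 peak, and the lowest 27.7%, in the Cfg1 peak of Arhgap5. The part that base composition has in which antibody called a peak was not tested, and antibody cannot be told apart from library kit.

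**Figure D4:**
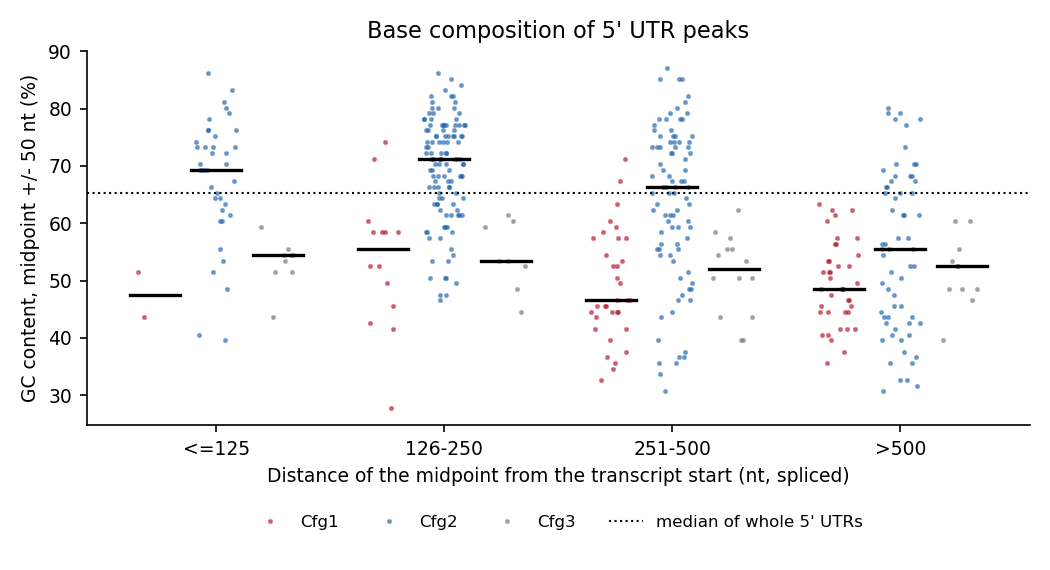
GC content within 50 nt of the midpoint of each 5′ UTR peak (y axis, %) by distance of its midpoint from the transcript start (x axis, classes in nt) and list, with medians as black bars and the median of whole 5′ UTRs (65.2%) as a dotted line. Cfg2 medians lie at 69.3%, 71.3% and 66.3% in the first 3 classes and at 55.4% beyond 500 nt, and the other lists lie below the dotted line in each class.

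No difference in GGACT frequency between 5′ UTR peaks and CDS or 3′ UTR peaks passed the test. It was present within 50 nt of the midpoint in 108 of 442 peaks (24.4%, 20.7 to 28.6), and in 11.05% of all windows of the same length tiled over the 5′ UTRs of genes with a peak. By list, 27 of 90 Cfg1 windows held it (30%, 21.5 to 40.1), 75 of 310 Cfg2 windows (24.2%, 19.8 to 29.3) and 6 of 42 Cfg3 windows (14.3%, 6.72 to 27.8). Against the CDS peaks of the same list the difference was 7.24 points in Cfg1 (-1.39 to 17.5, adjusted p = 0.23), 3.99 in Cfg2 (-0.78 to 9.31, adjusted p = 0.23) and 1.55 in Cfg3 (-6.19 to 15.2, adjusted p = 0.94), by two-sided Fisher's exact tests. Against 3′ UTR peaks it was 2.00 points in Cfg1 (-6.82 to 12.4, adjusted p = 0.94), 0.86 in Cfg2 (-4.00 to 6.27, adjusted p = 0.94) and -7.06 in Cfg3 (-15.9 to 7.05, adjusted p = 0.63, Fisher's exact tests). None of the 6 passed, and the intervals leave room for differences of several points either way. For Cfg2 the outcome changed with the peaks kept, the window and the motif. With 1 peak per gene and region, Cfg1 peaks were kept before Cfg2 peaks. This left Cfg2 with 244 5′ UTR, 768 CDS and 1099 3′ UTR peaks, from genes without a Cfg1 peak in that region. In this selected set its differences turned to -0.95 points from the CDS and -2.84 from the 3′ UTR, neither past the threshold. With windows of 100 nt to either side its difference from the CDS was 6.90 points (adjusted p = 0.041), and with GGAC in place of GGACT its difference from the 3′ UTR was 10.4 points (adjusted p = 0.0027, Fisher's exact test).

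In the lists called with SySy the motif lay mainly on the RNA strand. The reverse complement AGTCC, the same pentamer on the opposite strand, was present in 4 of the 90 Cfg1 windows (4.44%), 21 of the 310 Cfg2 windows (6.77%) and 2 of the 42 Cfg3 windows (4.76%). GGACT exceeded it by 25.6 points in Cfg1, with 27 windows holding GGACT alone and 4 AGTCC alone (adjusted p = 0.00014, two-sided exact McNemar test). In Cfg2 the excess was 17.4 points, 69 windows against 15 (adjusted p = 1.16e-08, exact McNemar test). In Cfg3 it was 9.52 points, 6 windows against 2 (adjusted p = 0.46, exact McNemar test), which did not pass. Over all windows tiled on these 5′ UTRs the pair stood at 11.05% and 9.54%. Within 20 nt of the midpoint GGACT occurred 4.72 times per kb in Cfg1 and AGTCC 0.278 times. In Cfg2 the values were 3.09 and 0.65, and in Cfg3 1.19 and 0.595, the last from 2 and 1 occurrences. At 60 to 100 nt from the midpoint GGACT stood at 2.47 per kb in Cfg1, 1.67 in Cfg2 and 1.54 in Cfg3. In classes of 20 nt, Cfg2 was not symmetric about the midpoint: it stood at 3.65 per kb from 60 to 40 nt upstream, 3.11 and 3.07 in the classes just before and just after the midpoint, and 0.806 from 60 to 80 nt downstream. The highest class of Cfg1 was the 20 nt after the midpoint (5.56 per kb, 10 occurrences).

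**Figure D5:**
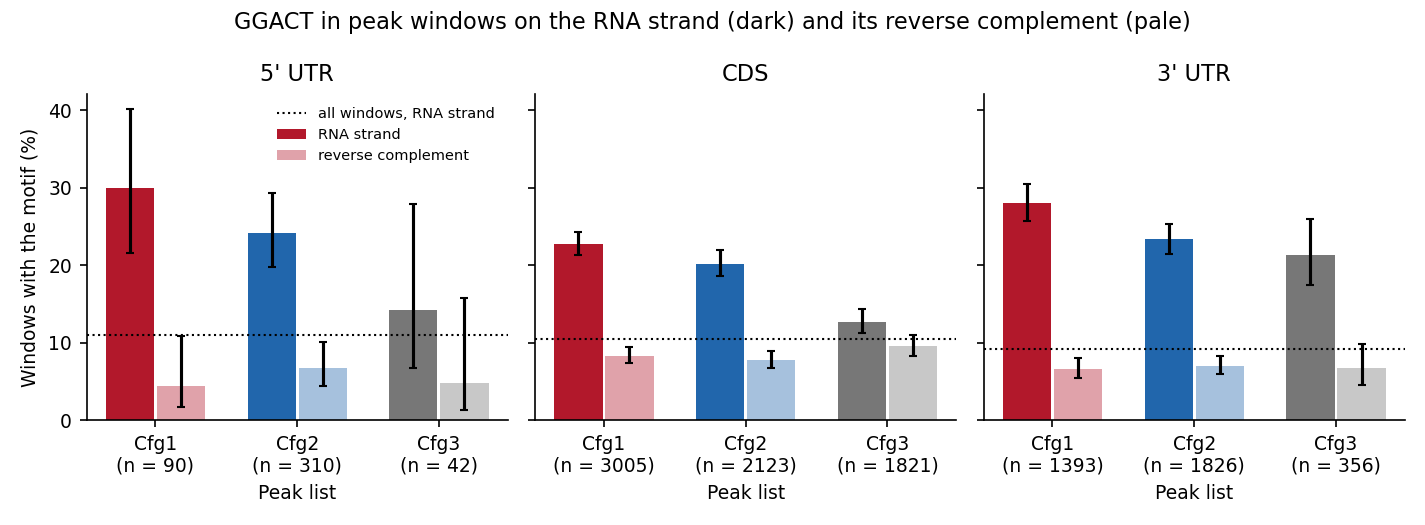
Share of peak windows (50 nt to either side of the midpoint) that hold GGACT on the RNA strand (dark bars) or its reverse complement (pale bars) (y axis, %) by list (x axis) in the 5′ UTR, CDS and 3′ UTR, with 95% Wilson intervals as error bars. In the 5′ UTR the dark bars stand at 30%, 24.2% and 14.3%, and the dotted line, all windows of that region in genes with a peak on the RNA strand, at 11.05%.

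The other bases after GGAC were counted in the same windows and not tested between lists. In Cfg1 windows GGACA was the next most frequent (25.6%, 17.7 to 35.4), followed by GGACC (14.4%) and GGACG (5.56%). In Cfg2 windows GGACC was at 22.9% (18.6 to 27.9), GGACG at 16.1% and GGACA at 13.5% (10.2 to 17.8), and in Cfg3 windows GGACA and GGACG were at 16.7% and GGACC at 14.3%. The reverse complements of GGACC and GGACG were themselves at 12.9% and 11.9% of Cfg2 windows, while that of GGACA was at 8.71%. The shorter GGAC was found in 55.6% of Cfg1, 57.4% of Cfg2 and 52.4% of Cfg3 windows, and its reverse complement GTCC in 20%, 34.5% and 16.7% of them in the same order. In all windows of these UTRs the shares were 39.5% for GGAC and 36.6% for its reverse complement. With GGAC the strand contrast of Cfg3 passed the test (35.7 points, adjusted p = 0.0098, exact McNemar test).

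No difference in GGACT between peaks near a start and farther ones passed the test either. Of the 50 midpoints near the transcript start 12 had it (24.0%, 14.3 to 37.4), against 96 of the 392 farther away (24.5%, 20.5 to 29.0), a difference of -0.49 points (-11.2 to 13.5, adjusted p = 1, Fisher's exact test). Within Cfg2 the counts were 10 of 39 and 65 of 271, a difference of 1.66 points (-10.7 to 17.8, adjusted p = 0.94, Fisher's exact test). With 50 peaks near a start, differences inside these intervals were not detectable.

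Differences in peak width between regions were small. The 5′ UTR peaks had a median width of 152.5 nt in Cfg2 and 120 nt in Cfg3, against 163 nt and 138 nt for the CDS peaks of these lists. In Cfg1 the 25th to 75th percentiles were 154.5 to 246.75 nt in the 5′ UTR and 156 to 247 nt in the CDS. On the log2 scale the difference in mean width, 5′ UTR minus CDS, was -0.066 in Cfg2 (7.26 ± 0.44 and 7.33 ± 0.44, SD over 310 and 2123 peaks, permutation test with 100000 resamples, adjusted p = 0.035). Placing peaks on the APPRIS principal transcript ended this call (-0.056, adjusted p = 0.086, permutation test). The difference was 0.00033 in Cfg1 (adjusted p = 1) and -0.11 in Cfg3 (adjusted p = 0.22, permutation test). The full 250 nt to which broad peaks were trimmed was reached by 21 Cfg1, 29 Cfg2 and no Cfg3 peaks, and 52, 129 and 8 peaks of these lists were parts of a split broad peak.

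Most genes with a 5′ UTR peak also had peaks elsewhere. The gene of the peak carried a CDS peak in 67 of 90 cases in Cfg1 (74.4%, 64.6 to 82.3), 188 of 310 in Cfg2 (60.6%, 55.1 to 65.9) and 18 of 42 in Cfg3 (42.9%, 29.1 to 57.8). An intronic peak of the same gene was present for 26 Cfg1 (28.9%), 131 Cfg2 (42.3%) and 20 Cfg3 peaks (47.6%). Counted per 5′ UTR peak, its gene held a median of 5 peaks of any list for Cfg1, 4 for Cfg2 and 3 for Cfg3, up to 32. The 5′ UTR peak was the only peak of its gene in 60 of 442 cases (13.6%, 10.7 to 17.1), against 791 of 3575 3′ UTR peaks (22.1%), a difference of -8.55 points (-11.8 to -4.80, adjusted p = 9.20e-05, two-sided Fisher's exact test). Against CDS peaks, 701 of 6949 of which were the only one (10.1%), the difference was 3.49 points (0.51 to 7.06, adjusted p = 0.056, Fisher's exact test) and did not pass. That comparison turned round to -6.89 points (adjusted p = 0.010, Fisher's exact test) when each gene was counted once per region, since CDS peaks often share a gene. In these counts the parts of a split broad peak were separate peaks. Zfp239, with 2 touching 5′ UTR peaks and no peak elsewhere, was therefore not among the genes with an only peak.

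The annotation of these positions often depended on the transcript. Other coding transcripts were annotated for the genes of 330 of the 442 peaks, and the midpoint was 5′ UTR in each of these transcripts for 94 peaks (29 of Cfg1, 54 of Cfg2 and 11 of Cfg3). It lay outside at least 1 of them for 204 peaks (37, 150 and 17 in the same order of lists), was intronic in at least 1 for 70 (8, 53 and 9) and coding in 2 (in Zfp638 and Usp48). In 4 cases it also lay in an exon of another gene on the same strand.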

How the data were processed

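The deposited data were 3 BED lists with 6 columns, in which the authors' intervals were used by start, end, strand and name. Their deposited score was 0 for every peak. Per the study's methods, calling was done by MACS2 2.1.1 from duplicates against input, separately per antibody, and peaks were split between summits, trimmed to 250 nt and given the strand with the higher enrichment. HOMER is also named in the submitters' notes, and the aligner is not given in the sources used here. In 1 entry the strand field carried a stray character, which was dropped.

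Intervals were placed on GRCm38.p6 (mm10) with GENCODE vM21. Distances follow the spliced transcript. A window of 50 nt to either side of the midpoint was read for motifs. The 24 tests were two-sided Fisher's exact tests, exact McNemar tests and, for width, permutation tests (100000 resamples), adjusted together by Benjamini-Hochberg with a threshold of 0.05, which 9 passed. Shares have 95% Wilson intervals, their differences Newcombe intervals and densities exact Poisson intervals. Scripts were tested on simulated data. Genes named are the 12 with the most 5′ UTR peaks, members of 17 gene lists (up to 6 a list, Cfg1 before Cfg2 before Cfg3, then by symbol), the 4 peaks nearest and the 4 farthest from a start per list, and the peaks with a GGACT nearest to the midpoint. Spns1, Epn2, Cggbp1, Hsp90b1 and Zfp445 were named for lying at the edge of the region. The members, lists and tests were chosen with earlier results of these data known. Alternatives changed the transcript, the placing rule, the window, the motif, the distance limit and the unit counted. With 1 peak per gene and region, a Cfg1 peak was kept before a Cfg2 peak, and a Cfg2 peak before a Cfg3 peak. That setting therefore also changed the make-up of the lists. Python 3.11.15, pysam 0.24.0, scipy 1.17.1, numpy 2.4.6 and matplotlib 3.10.9 were used.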

Additional observations from a re-analysis of the deposited data

How the results depend on the processing

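Over 12 alternative settings, 202 values were recomputed: 161 kept their direction and side of the threshold (counts within 1.5 times), 6 lost the call, 5 gained it and 30 changed sign. Of those 30, 29 passed the threshold in neither setting. The exception was the share of peaks alone in their gene, 5′ UTR minus CDS, at -6.89 points with 1 peak per gene and region, which counting multi-peak CDS genes once brings by construction, and at 3.81 points with the longest coding transcript (adjusted p = 0.031, Fisher's exact test). Near the start, Cfg1 minus Cfg3 was -11.6 points with the longest transcript (adjusted p = 0.084, Fisher's exact test) and -4.76 with a limit of 50 nt, Cfg2 minus Cfg1 was 2.90 with that limit and 12.6 against the start of any transcript, and Cfg2 minus Cfg3 was -24.6 against any start (adjusted p = 0.0092, Fisher's exact test) and 3.84 with a limit of 200 nt. The log2 width difference of Cfg2 was -0.056 both on the APPRIS transcript and where at least 50% of the interval had to lie in the region (adjusted p = 0.086 and 0.088, permutation test), and that of Cfg1 turned to -0.0076 on the APPRIS transcript and -0.087 with 1 peak per gene. With windows of 100 nt to either side the GGACT difference of Cfg2, 5′ UTR minus CDS, was 6.90 points. With GGAC the Cfg2 difference, 5′ UTR minus 3′ UTR, was 10.4 points and the strand contrast of Cfg3 35.7 points.

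The other changes of sign were in differences called neither in the report nor under the setting named. GGACT minus the CDS turned for Cfg1 to -1.28 with GGAC, for Cfg2 to -0.95 with 1 peak per gene, and for Cfg3 to -0.27 by the 50% rule, -1.72 with windows of 25 nt to either side and -4.73 in the deposited interval. GGACT minus the 3′ UTR turned for Cfg1 to -1.67 without 250 nt peaks, -1.28 in the deposited interval and -2.81 with GGAC, for Cfg2 to -2.84 with 1 peak per gene, -0.038 without 250 nt peaks, -0.57 in the narrow windows and -0.67 in the deposited interval, and for Cfg3 to 0.41 with GGAC. GGACT near minus far from a start turned over all lists to 1.42 (APPRIS), 1.62 (GGAC), 12.2 (50 nt), 0.87 (200 nt) and 4.20 (any start), and in Cfg2 to -0.073 (longest transcript), -1.54 (1 peak per gene), -0.095 (narrow windows), -1.02 (wide windows), -1.15 (GGAC) and -1.92 (200 nt). The first-base difference turned to -0.73 with the longest transcript. The Cfg3 share minus the 3′ UTR turned to 1.38 with 1 peak per gene, a setting that kept Cfg1 and Cfg2 peaks before Cfg3 peaks. The cause of these changes was not tested. The called differences in list membership against CDS and 3′ UTR kept their calls under each placing rule. Replicates could not be left out and no stricter calling threshold could be applied, since values per library were absent from the lists and scores were 0. No paired analysis was possible because no column belongs to a single library.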
